A study of Mus musculus with 16 samples.

Results

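Inhibitors of proteolysis encoded by 5 genes were followed across the arrays of this mouse testis study: the cystatins Cst3, Cstb and Cstdc1, the WAP and Kunitz domain inhibitor Eppin, and the serpin Serpina5. They are the genes with these symbols, or with an older symbol of the same Entrez number, in the authors' deposited comparison tables. The 5 genes have 7 probes among the 932 probes (840 genes) that these tables name and the 25697 probes with values. All 7 probes stand in the deposited TgMsi2 table as higher in the transgenic testes, and 0 stand in the deposited TgMsi1 table. The genes were thus chosen by their signal on the TgMsi2 and Wt(TgMsi2) arrays, and the values there are given as a description, with no test. Of the 8 probes the array design holds for the 5 genes, the eighth, a second probe for Serpina5, is in neither table and its values were not read.

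Each array measured total RNA of whole testis from 3-month-old B6xCBA mice, and the 16 arrays form 4 groups of 4. TgMsi2 testes carry a transgene that overexpresses the RNA-binding protein Musashi-2 in testis, and Wt(TgMsi2) testes come from wild-type littermates of that line. TgMsi1 testes carry a Musashi-1 transgene of the same kind, and Wt(TgMsi1) testes come from the wild-type littermates of that second line. The promoter that drives the transgenes, the number of founder lines and whether the 4 replicates of a group were 4 mice are not stated in the labels, so p-values reflect the spread between arrays, which may be technical. Values are the deposited normalized log2 signals, on which a difference of 1 is a doubling, and bead arrays give no read depth.

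Cystatins block papain-like cysteine proteases, among them the lysosomal cathepsins. Cystatin C, the product of Cst3, is secreted and abundant in body fluids including semen, while cystatin B, the product of Cstb, acts inside cells. Many cystatin genes with expression in the male tract lie side by side in mouse and human. EPPIN coats sperm and binds semenogelin in human semen, and Eppin transcript is known from Sertoli cells and epididymis. SERPINA5, also called protein C inhibitor, inhibits several serine proteases of blood and reproductive fluids, and male mice without Serpina5 are infertile.

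The probe sequences show which transcripts were read. The 50-base probe of Cst3 lies on the minus strand at chr2:148698590-148698639, and that of Eppin probe 1 at chr2:164418979-164419028. These are the deposited coordinates, with no build named. In Eppin probe 1 the capitals mark the 8 bases that also end the RefSeq window around the Eppin start, so this probe reads the very beginning of the transcript. Eppin probes 2 and 3 both read the far end of the transcript and share 31 bases of sequence, so their values are not independent. Their deposited coordinates, chr2:164279598-164279647 and chr2:164413876-164413925, do not overlap, and this mismatch was not resolved.
Cst3 probe: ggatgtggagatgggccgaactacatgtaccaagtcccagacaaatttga
Eppin probe 1: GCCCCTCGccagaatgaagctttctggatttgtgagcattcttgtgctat

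Further deposited probe positions are chr10:77889637-77889686 for Cstb, chr2:148611537-148611586 for Cstdc1 (listed under its clone name 8030411F24Rik) and chr12:104507086-104507135 for Serpina5, all on the plus strand.

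In RefSeq's gene order Cstdc1 and Cst3 belong to 1 run of 10 cystatin genes on chromosome 2, and Eppin to a run of 14 WFDC and Kunitz inhibitor genes on the same chromosome. Of the cystatin run, 9 genes are on the array and 2 (Cstdc1 and Cst3) are in the deposited TgMsi2 table. Of the WFDC run, 10 are on the array and 2 (Eppin and Wfdc10) are in that table. The table holds 1.59% of all probes as higher and 1.14% as lower. Cstdc1, Cst3 and Eppin were themselves chosen from it, so nothing is read from these counts. The 250 bases before the RefSeq start (GRCm38.p6) were found for 4 of the 5 genes and not for Cstb. They are printed for the 3 genes in which a searched motif was found, to show where it lies. The choice was made by the motif matches alone, and any tie between them and the values of the genes was not tested. Capitals mark the matches, on either strand, to the GC box (GGGCGG), a nuclear receptor half-site (AGGTCA, which reads TGACCT on the other strand), an androgen receptor half-site (AGAACA) and a SOX motif (ACAAAG).
Cst3 (chr2:148875513-148875762, minus strand): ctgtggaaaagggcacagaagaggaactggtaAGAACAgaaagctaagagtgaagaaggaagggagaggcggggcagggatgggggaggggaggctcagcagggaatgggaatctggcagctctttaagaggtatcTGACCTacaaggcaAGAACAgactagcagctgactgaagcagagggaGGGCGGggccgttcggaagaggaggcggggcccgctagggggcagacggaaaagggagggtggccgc
Cstdc1 (chr2:148781759-148782008, plus strand): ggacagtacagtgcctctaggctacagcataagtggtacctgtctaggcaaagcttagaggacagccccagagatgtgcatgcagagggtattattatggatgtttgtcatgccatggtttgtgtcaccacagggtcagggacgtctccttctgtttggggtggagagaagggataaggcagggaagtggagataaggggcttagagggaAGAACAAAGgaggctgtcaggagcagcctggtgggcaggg
Serpina5 (chr12:104100863-104101112, plus strand): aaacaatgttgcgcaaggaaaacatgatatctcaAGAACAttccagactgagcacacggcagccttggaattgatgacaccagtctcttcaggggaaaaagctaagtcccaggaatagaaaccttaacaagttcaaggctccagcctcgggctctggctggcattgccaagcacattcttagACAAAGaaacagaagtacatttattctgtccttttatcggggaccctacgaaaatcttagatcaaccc

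AGAACA occurred 2 times in the Cst3 window and 1 time each in the Cstdc1 and Serpina5 windows, and 16.1% of all 32851 windows of this length hold it. ACAAAG occurred 1 time each in Cstdc1, where it overlaps AGAACA, and in Serpina5, and is held by 16.5% of all windows. GGGCGG (32.7% of all windows) and AGGTCA (14% of all windows) occurred 1 time each in Cst3. The TATA box (TATAAA, 12.4%), the CCAAT box (CCAAT, 33.8%), the E-box (CACGTG, 6.02%) and the cAMP response element (TGACGTCA, 1.55%) were found in none of the 4 windows. The Eppin window held none of the 8 motifs. GC content was 59.6% for Cst3, 53.2% for Cstdc1, 50% for Eppin and 44.8% for Serpina5, against a median of 52.4% over all windows.

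All 7 probes were bright, with mean log2 signals between the 82.0 and 97.2 percentile of the 25697 probes. On the TgMsi2 arrays every one of them had a higher mean than on the Wt(TgMsi2) arrays, which is how the genes were chosen. The difference in mean log2 signal was 0.64 to 1.13, a fold of 1.56 to 2.19, with a median over the 7 probes of 0.82, against -0.0037 over all probes. For 6 of the 7 probes, covering 4 of the 5 genes, all 4 TgMsi2 arrays lay above all 4 Wt(TgMsi2) arrays, a pattern that 7.6% of all probes had. Nothing is read from that count, because the same arrays picked the genes. The deposited TgMsi2 table holds folds of at least 1.5, and Cst3, at 1.56, was the member nearest to that limit.

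Cst3 had log2 signals of 13.54, 12.85, 13.58 and 12.70 on the TgMsi2 arrays (replicates 1 to 4), against 12.44, 12.84, 12.39 and 12.42 on the Wt(TgMsi2) arrays. The groups overlapped: TgMsi2 replicates 1 and 3 stood well above the wild types, while replicates 2 and 4 lay beside the highest wild-type array. The means were 13.17 ± 0.46 in TgMsi2 and 12.52 ± 0.21 in Wt(TgMsi2) testes (SD, n = 4 each), a difference of 0.64 (SE 0.21). Without TgMsi2 replicates 1 and 3 the difference was 0.25. In the TgMsi1 line Cst3 had 12.24, 12.79, 12.26 and 12.13 on the transgenic arrays, against 12.18, 11.70, 12.15 and 12.14 on the Wt(TgMsi1) arrays. Apart from the high TgMsi1 replicate 2 and the low Wt(TgMsi1) replicate 2, these arrays lay within a narrow band. By group mean the order was TgMsi2, Wt(TgMsi2), TgMsi1 and Wt(TgMsi1), and each neighbouring pair overlapped.

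Cstb, whose loss causes a progressive myoclonus epilepsy in humans, had the highest TgMsi2 difference of the 5 genes. Its log2 signals were 12.72, 12.06, 12.92 and 11.83 on the TgMsi2 arrays, against 11.72, 11.44, 10.61 and 11.24 on the Wt(TgMsi2) arrays. The lowest TgMsi2 array stood just above the highest wild-type array, by 0.11. The means were 12.38 ± 0.52 in TgMsi2 and 11.26 ± 0.47 in Wt(TgMsi2) testes (SD, n = 4 each), a difference of 1.13 (SE 0.26) or 2.19-fold. It was 0.69 without TgMsi2 replicates 1 and 3, and 0.92 without Wt(TgMsi2) replicate 3, the lowest array. The TgMsi1 arrays had 11.66, 11.75, 11.60 and 11.13, against 11.20, 11.10, 11.55 and 11.11 on the Wt(TgMsi1) arrays. TgMsi2 was separated from TgMsi1, the next group in order, and the other 3 groups overlapped in sequence.

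Cstdc1, a little-studied gene with a cystatin domain, had 11.004, 11.28, 11.59 and 10.78 on the TgMsi2 arrays, against 10.19, 9.94, 10.14 and 10.25 on the Wt(TgMsi2) arrays. Its gap was the widest of the 7 probes: the lowest TgMsi2 array lay 0.53 above the highest wild-type array. The means were 11.16 ± 0.35 in TgMsi2 and 10.13 ± 0.14 in Wt(TgMsi2) testes (SD, n = 4 each), a difference of 1.03 (SE 0.18) or 2.05-fold. Without TgMsi2 replicates 1 and 3 it was 0.90. On the TgMsi1 arrays Cstdc1 had 10.16, 10.23, 9.61 and 9.64, against 9.86, 9.38, 9.67 and 9.83 on the Wt(TgMsi1) arrays. TgMsi1 replicates 1 and 2 lay above all 4 wild types, and replicates 3 and 4 lay among them.

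**Figure D1:**
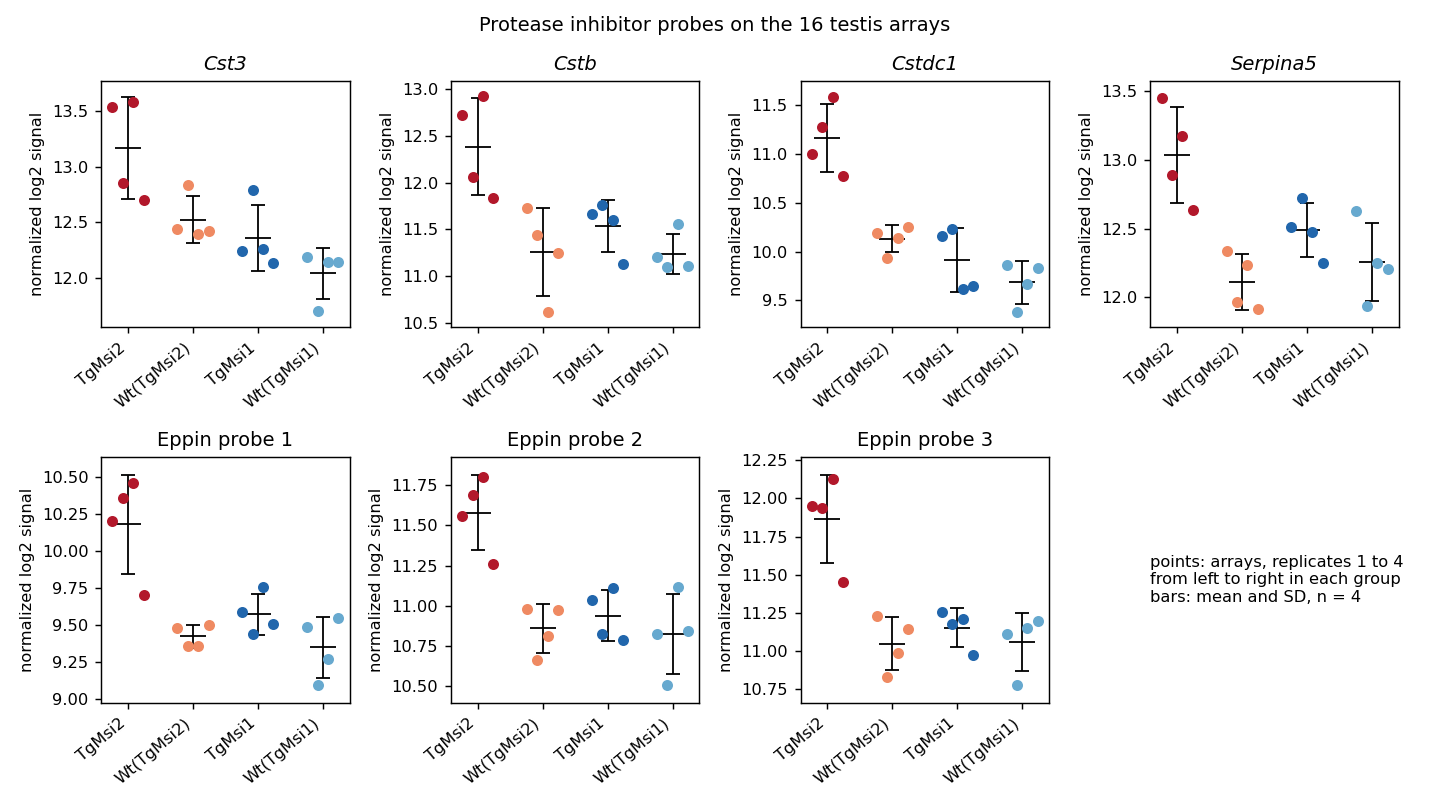
Normalized log2 signal of each of the 7 probes on the 16 testis arrays, by group, with 1 point per array in replicate order and bars for the mean and SD (n = 4). The TgMsi2 points lie above the Wt(TgMsi2) points in every panel except Cst3, where TgMsi2 replicate 4 (12.70) lies below Wt(TgMsi2) replicate 2 (12.84).

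Eppin was read by 3 probes at both ends of its transcript, and all 3 were separated between the TgMsi2 and Wt(TgMsi2) groups. Eppin probe 3 had 11.95, 11.93, 12.12 and 11.45 on the TgMsi2 arrays, against 11.23, 10.83, 10.99 and 11.15 on the Wt(TgMsi2) arrays. TgMsi2 replicates 1 to 3 lay close together, with replicate 4 between them and the wild types. The means were 11.86 ± 0.29 in TgMsi2 and 11.05 ± 0.18 in Wt(TgMsi2) testes (SD, n = 4 each), a difference of 0.82 (SE 0.13). Eppin probe 2 averaged 11.58 ± 0.23 on the TgMsi2 arrays and 10.86 ± 0.15 on the Wt(TgMsi2) arrays (SD, n = 4 each), a difference of 0.72 (SE 0.13). Eppin probe 1, at the start of the transcript, had 9.70 to 10.46 on the TgMsi2 arrays, against 9.36 to 9.50 on the Wt(TgMsi2) arrays, a difference of 0.76 (SE 0.14). In all 3 probes TgMsi2 replicate 4 was the lowest TgMsi2 array and still stood above the wild types. Without TgMsi2 replicates 1 and 3 the differences were 0.61, 0.62 and 0.64 for probes 1, 2 and 3. In the TgMsi1 line Eppin probe 3 had 11.25, 11.17, 11.21 and 10.97 on the transgenic arrays, against 11.11, 10.78, 11.15 and 11.19 on the Wt(TgMsi1) arrays, and the groups overlapped. Eppin probe 2 had 10.79 to 11.11 on the TgMsi1 arrays, against 10.51 to 11.11 on the Wt(TgMsi1) arrays, and probe 1 had 9.44 to 9.76 on the TgMsi1 arrays, against 9.09 to 9.55 on the Wt(TgMsi1) arrays. TgMsi2 had the highest mean in every Eppin probe, and TgMsi1 and both wild-type groups overlapped each other in order. TgMsi2 was separated from TgMsi1 in probes 2 and 3. In probe 1 these groups overlapped, with TgMsi2 replicate 4 (9.70) below TgMsi1 replicate 3 (9.76).

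Serpina5 had 13.44, 12.89, 13.17 and 12.63 on the TgMsi2 arrays, against 12.34, 11.97, 12.23 and 11.91 on the Wt(TgMsi2) arrays. The groups were separated by 0.30. The means were 13.04 ± 0.35 in TgMsi2 and 12.11 ± 0.20 in Wt(TgMsi2) testes (SD, n = 4 each), a difference of 0.92 (SE 0.17) or 1.90-fold, and without TgMsi2 replicates 1 and 3 it was 0.65. The TgMsi1 arrays had 12.51, 12.72, 12.48 and 12.25, against 12.63, 11.94, 12.25 and 12.20 on the Wt(TgMsi1) arrays. Here Wt(TgMsi1) replicate 1 exceeded 3 of the 4 TgMsi1 arrays. Its probe reads transcript position 2061, and TgMsi1 replicate 2 (12.72) lay above TgMsi2 replicate 4, so the TgMsi2 and TgMsi1 groups overlapped.

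The TgMsi1 comparison did not choose these genes and could be tested. In it 0 of the 7 probes passed limma's test at an adjusted p of 0.05, where 0.0117% of all 25697 probes passed in either direction. None of the 7 had an unadjusted p under 0.05 either, against 7.32% of all probes, and in none did all 4 TgMsi1 arrays lie above all 4 wild types, against 1.88% of all probes. All 7 differences were above 0, with a median of 0.23 on the log2 scale, where the median of all probes was 0.0001 and 50.1% lay above 0. These 7 values share arrays and 3 of them share a gene, so they are not 7 separate observations.

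The 3 cystatins had TgMsi1 differences of 0.31 for Cst3 (SE 0.21, 95% interval -0.12 to 0.75), 0.30 for Cstb (SE 0.26, interval -0.25 to 0.85) and 0.23 for Cstdc1 (SE 0.18, interval -0.16 to 0.61). Their limma adjusted p-values were 0.812, 0.864 and 0.850. Serpina5 differed by 0.23 (SE 0.17, interval -0.14 to 0.61, limma adjusted p = 0.838). The Eppin probes differed by 0.22, 0.12 and 0.09 (limma adjusted p = 0.800, 0.907 and 0.924), with upper limits of 0.52, 0.40 and 0.38. The TgMsi2 differences were selected for their size, so they are not set against these intervals. Single arrays carried part of the TgMsi1 values: without Wt(TgMsi1) replicate 2 the differences were 0.01 and 0.0007 for Eppin probes 2 and 3, 0.13 for Serpina5, 0.13 for Cstdc1, 0.14 for Eppin probe 1 and 0.20 for Cst3, and without TgMsi1 replicate 2 they were 0.17 for Cst3, 0.12 for Cstdc1 and 0.16 for Serpina5. Cstb was at 0.22 to 0.43 with any 1 array left out.

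**Figure D2:**
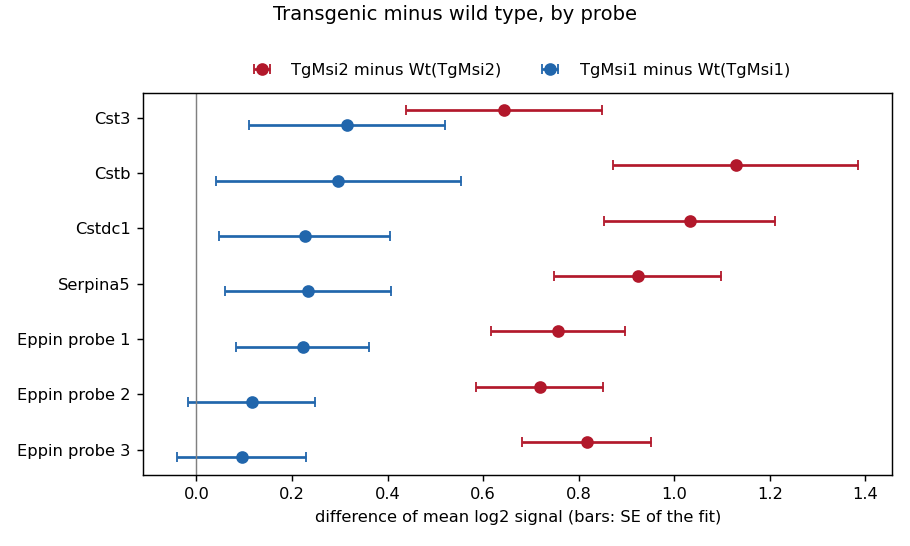
Difference of mean log2 signal between transgenic and wild-type testes for each probe, with bars for the SE of the limma fit; the TgMsi2 comparison, which chose the genes, is drawn above the TgMsi1 comparison. The TgMsi2 points lie between 0.64 and 1.13, and the TgMsi1 points between 0.09 and 0.31.

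The TgMsi2 difference exceeded the TgMsi1 difference in every probe. The excess was 0.33 for Cst3 (SE 0.29), 0.83 for Cstb (SE 0.36), 0.81 for Cstdc1 (SE 0.25), 0.69 for Serpina5 (SE 0.25) and 0.53, 0.60 and 0.72 for Eppin probes 1, 2 and 3. Because the TgMsi2 arrays chose the genes, these values describe them and were not tested. Without TgMsi2 replicates 1 and 3 the excess was -0.06 for Cst3, 0.40 for Cstb and 0.42 for Serpina5.

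The wild types of the lines did not start level in all 5 genes. Cst3 averaged 12.52 in Wt(TgMsi2) and 12.04 in Wt(TgMsi1) testes, a difference of 0.48 (SE 0.21), and Cstdc1 10.13 in Wt(TgMsi2) and 9.69 in Wt(TgMsi1) testes, a difference of 0.44 (SE 0.18). In both, all 4 Wt(TgMsi2) arrays lay above all 4 Wt(TgMsi1) arrays, which 2.35% of all probes showed. In both genes the Wt(TgMsi2) mean was also above the TgMsi1 mean, by 0.17 in Cst3 and 0.22 in Cstdc1, with overlap. For Cstb, the Eppin probes and Serpina5 the wild-type means differed by -0.14 to 0.07. The Wt(TgMsi2) arrays helped to choose the genes, so this too is a description.

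Within the TgMsi2, TgMsi1 and Wt(TgMsi1) groups most probes moved together from array to array, and within Wt(TgMsi2) they did so less. TgMsi2 replicate 3 was the highest of its group in 6 of the 7 probes and replicate 4 the lowest in 7 of 7. Wt(TgMsi1) replicate 2 was the lowest of its group in 7 of 7, and TgMsi1 replicate 4 in 5 of 7. In Wt(TgMsi2) replicates 2 and 3 were each the lowest in 3 of 7, and replicate 1 was the highest in 4 of 7. The mean deviation of the 5 genes from their group means (Eppin by the mean of its 3 probes) was 0.20, -0.11, 0.35 and -0.44 on TgMsi2 replicates 1 to 4 and 0.07, 0.23, -0.04 and -0.26 on TgMsi1 replicates 1 to 4. The spread of the transgenic arrays thus reached 0.80 log2 units between TgMsi2 replicates 3 and 4, close to the median difference between the groups. Across the 16 arrays, after group means were subtracted, pairs of probes from different genes correlated with Pearson r between 0.29 and 0.75 (18 pairs, median 0.52, highest for Cstdc1 with Eppin probe 3), and pairs of Eppin probes between 0.75 and 0.88 (3 pairs). Over the 12 arrays without TgMsi2 the 18 pairs had r from 0.05 to 0.66 (median 0.34). These correlations are descriptions: the probes of a pair were read on the same arrays and so share each array's RNA sample.

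**Figure D3:**
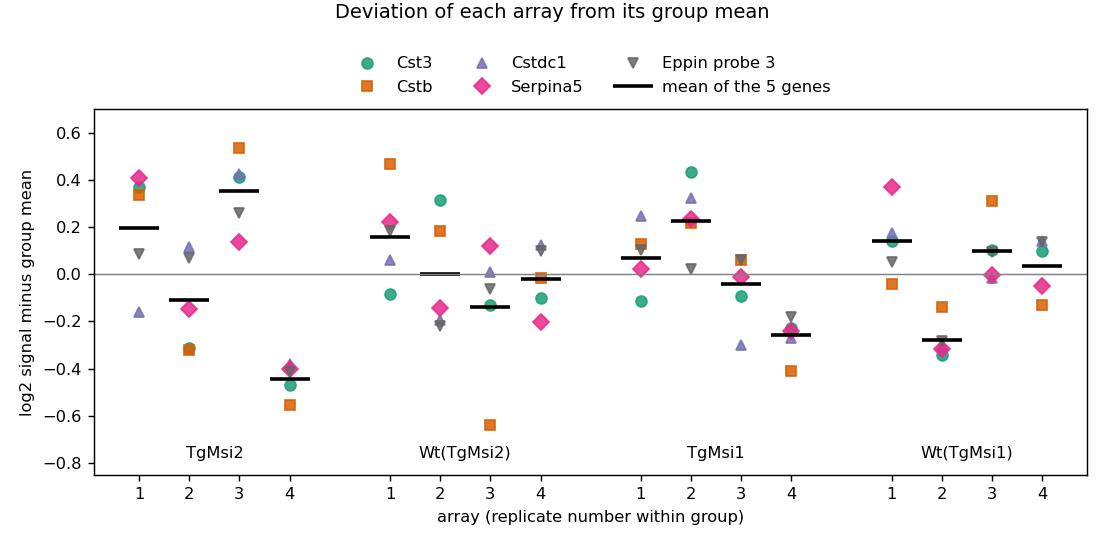
Log2 signal of each gene on each of the 16 arrays minus the mean of its group, with Eppin points shown by probe 3. Black bars are the mean of the 5 genes, with Eppin entered as the mean of its 3 probes. All 5 genes lie below their group mean on TgMsi2 replicate 4, TgMsi1 replicate 4 and Wt(TgMsi1) replicate 2.

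Arrays also differed over all probes and in markers of testis cell types. On the first principal component (40.9% of the variance) TgMsi2 replicates 1 to 4 lay at 35.3, 13.6, 30.2 and 9.2 and TgMsi1 replicate 2 at 10.7, while the other 11 arrays lay between -16.4 and -3.5. Markers could be named only through the deposited tables, so the direction of most of their TgMsi2 sums was set by that selection. The late spermatocyte and elongating spermatid sums came mostly from Ccna1 and Gapdhs, which only the TgMsi1 table named. In TgMsi2 testes Ccna1 differed by -0.14 (SE 0.10), with overlapping arrays, and Gapdhs by -0.37 (SE 0.07). For the other lists only the spread between arrays of a group adds to that selection, and the TgMsi1 line where no marker was named through the TgMsi1 table. The summed linear signal of the 5 named Sertoli markers (of 16 on the array: Rhox5, Amhr2, Cldn11, Aard and Shbg) was 40575 to 58638 in TgMsi2 and 29964 to 34965 in Wt(TgMsi2) testes. TgMsi1 arrays had 30104 to 39995, with replicate 2 the highest, and Wt(TgMsi1) arrays 27899 to 36507, with replicate 2 the lowest. The 5 named Leydig markers (of 14) summed to 16231 to 25115 in TgMsi2 and 9730 to 13561 in Wt(TgMsi2) testes, and to 10508 to 14431 in TgMsi1 and 8216 to 12592 in Wt(TgMsi1) testes. The 4 named round spermatid markers (of 16: Crem, Spam1, Catsper4 and Spaca4) ran the other way, at 5162 to 8615 in TgMsi2 and 10408 to 12399 in Wt(TgMsi2) testes. They summed to 6384 to 10594 in TgMsi1 testes, with replicate 2 the lowest, and 9563 to 11494 in Wt(TgMsi1) testes.

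Macrophage markers (4 of 17 named) summed to 2671 to 3093 in TgMsi2 and 1440 to 1694 in Wt(TgMsi2) testes, peritubular myoid markers (2 of 8) to 6732 to 9480 in TgMsi2 and 2654 to 5695 in Wt(TgMsi2) testes, and the 1 named endothelial marker of 9, Robo4, to 901 to 1554 in TgMsi2 and 278 to 301 in Wt(TgMsi2) testes. Late spermatocyte markers (2 of 8) were at 3721 to 4819 in TgMsi2 and 4599 to 5286 in Wt(TgMsi2) testes, and elongating spermatid markers (2 of 12) at 13497 to 15940 in TgMsi2 and 21670 to 23493 in Wt(TgMsi2) testes. In the TgMsi1 line the elongating spermatid sums were 11725 to 16107 in TgMsi1 and 17138 to 20937 in Wt(TgMsi1) testes. They came mostly from Gapdhs, which the TgMsi1 table named as lower on these same arrays, so nothing is read from their separation. The other marker, Prm3, overlapped, with log2 signals of 10.29 to 11.73 in TgMsi1 and 11.57 to 12.35 in Wt(TgMsi1) testes. Its TgMsi1 difference was -0.85 (SE 0.25). The late spermatocyte sums, mostly from Ccna1 of the TgMsi1 table, were 3303 to 4017 in TgMsi1 and 3754 to 5051 in Wt(TgMsi1) testes. Their other marker, Aurkc, which that table does not name, differed by -0.29 (SE 0.08), with no overlap between the TgMsi1 and Wt(TgMsi1) arrays. Macrophage sums were 1426 to 1668 in TgMsi1 and 1371 to 1723 in Wt(TgMsi1) testes, myoid sums 4598 to 6167 in TgMsi1 and 4724 to 6094 in Wt(TgMsi1) testes, and Robo4 250 to 652 in TgMsi1, with replicate 2 the highest, and 243 to 306 in Wt(TgMsi1) testes. Of the macrophage markers Fcer1g was named through the TgMsi1 table too, as higher, with a log2 difference of 0.53. The TgMsi1 difference was -0.19 for Laptm5, -0.08 for Lyz2, and -0.04 and -0.13 for the 2 probes of Cd74. None of the 12 epididymis markers, 3 blood markers and 10 spermatogonia markers on the array has a named probe, so their levels were not read. In whole testis, fewer cells of a type and less RNA per cell cannot be told apart. The part of these cell type markers and of the arrays that stand apart in the values of the inhibitors was not tested.

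Each inhibitor was set beside the other named genes to find those with the most similar course. Similarity was Pearson's r over the 16 arrays after group means were subtracted, among 835 genes, all of which were named for a difference in the deposited tables. Eppin (probe 3) was closest to Rhox5, a homeobox gene and 1 of the Sertoli markers, with r = 0.95 over 16 arrays and 0.91 over the 12 without TgMsi2. Gadd45a and Rbm3-ps followed at 0.83 each. Cstdc1 was closest to the water channel gene Aqp8 (r = 0.91, and 0.89 over 12 arrays), followed by the disulfide isomerase gene Pdia5 at 0.81 and the metalloprotease inhibitor gene Timp1 at 0.73.

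**Figure D4:**
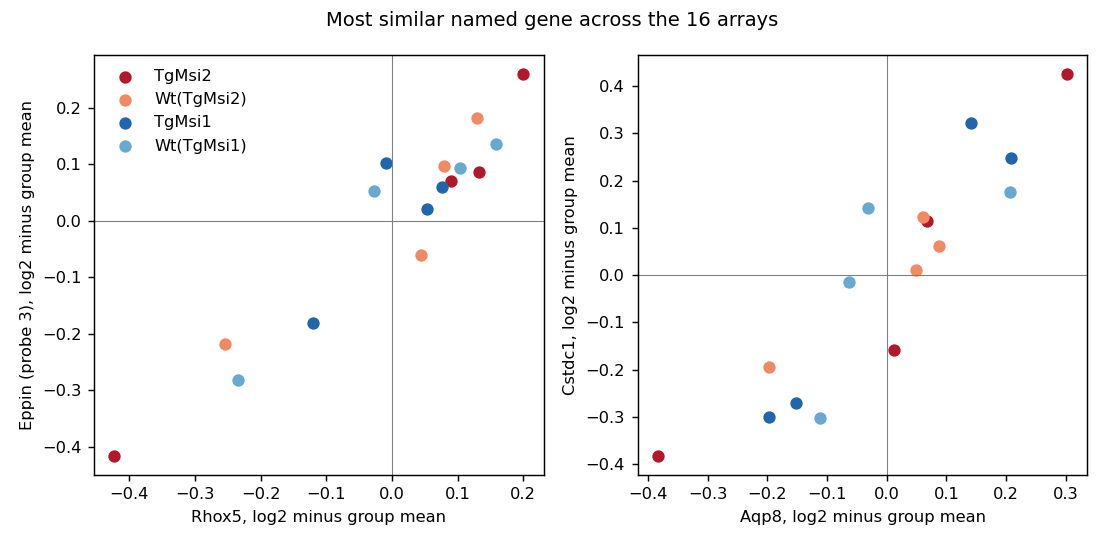
Deviations from the group mean (log2) of Eppin probe 3 against Rhox5 and of Cstdc1 against Aqp8, with 1 point per array and colours for the 4 groups. The points of both panels run along the diagonal, with r = 0.95 and 0.91 over 16 arrays.

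Cst3 was most like Ssr3, a subunit of the translocon-associated protein complex (r = 0.95, and 0.91 over 12 arrays), the actin-severing factor gene Dstn (0.94) and Hoxd10 (0.93). Cstb was most like the tubulin gene Tubb5 (0.95, and 0.92 over 12 arrays), the beta-defensin gene Defb36 (0.95 over both sets of arrays) and Pdlim4 (0.94). Serpina5 was most like the ornithine aminotransferase gene Oat (0.93, and 0.90 over 12 arrays), Atp6ap2 (0.93) and the prion protein gene Prnp (0.92). Likeness over arrays did not mean an equal TgMsi2 difference, which was 2.18 in Timp1 and 0.59 in Pdia5 beside 1.03 in Cstdc1, and 0.37 in Hoxd10 beside 0.64 in Cst3.

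The other genes of the same families and their targets were counted over everything the array holds, and only those in a deposited table can be named, so each count is a minimum. These are counts of genes on the array, while the percentages beside them are shares of the probes with values. The genes named through the TgMsi2 table were picked on the TgMsi2 and Wt(TgMsi2) arrays, and their TgMsi2 differences are given with no test. Of the 23 other cystatin superfamily genes on the array, 0 were in the deposited TgMsi2 table, which holds 1.59% of all probes as higher and 1.14% as lower. Of 12 cysteine cathepsins and legumain, proteases that some cystatins block, 3 were in it, all higher. Ctsb, a lysosomal protease, averaged 12.66 ± 0.47 in TgMsi2 testes, against 11.36 ± 0.36 in Wt(TgMsi2) testes (SD, n = 4 each), a difference of 1.29 (SE 0.23). The difference was 0.90 (SE 0.19) for legumain (Lgmn) and 0.67 (SE 0.16) for the aminopeptidase cathepsin H (Ctsh). All 4 TgMsi2 arrays lay above all 4 wild-type arrays in each of these 3 genes, which were picked on those arrays. In TgMsi1 testes these 3 genes differed by 0.34, 0.28 and 0.37 and did not pass (limma adjusted p = 0.823, 0.823 and 0.621).

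Beside Eppin, 3 of 30 other WFDC, Kunitz and Kazal inhibitor genes were higher in the deposited TgMsi2 table, which holds 1.59% of all probes as higher. Wfdc10, from the same chromosome 2 run as Eppin, differed by 0.87 and 0.97 in its 2 probes. Wfdc1 differed by 0.71 (SE 0.12) and the Kazal inhibitor Spink4 by 0.61 (SE 0.14), with overlapping arrays for Spink4. In TgMsi1 testes these 3 genes did not pass, with differences of -0.05 to 0.12 (limma adjusted p = 0.908 to 0.978). Ambp, the precursor of the Kunitz inhibitor bikunin, was in the deposited TgMsi1 table as higher, with a difference of 0.43 (SE 0.07), where that table holds 0.498% of all probes as higher.

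Beside Serpina5, 4 of 44 other serpins were higher in the deposited TgMsi2 table, which holds 1.59% of all probes as higher. Serping1, the complement C1 inhibitor, differed by 1.18 (SE 0.20), and Serpinf1, which encodes PEDF, by 0.74 (SE 0.19). Serpina3g and Serpina3n differed by 1.41 and 1.34, with overlapping arrays for Serpina3n, but belong to a family of near-identical genes, so which member a probe read is uncertain. Serpinb6c, named through the deposited TgMsi1 table, fell in TgMsi2 testes by 0.39 (SE 0.07, limma adjusted p = 0.00442), where 5.32% of all probes passed as lower. Its probe was dim, with mean log2 signals of 7.94 in TgMsi2 and 8.33 in Wt(TgMsi2) testes, beside a median of 7.83 over all values. None of 14 serine proteases that SERPINA5 can inhibit, among them the plasminogen activators and acrosin, was in either table. Of 10 other proteins of semen on the array 1, the seminal vesicle protein gene Svs5, was in the deposited TgMsi2 table, higher by 0.70 (SE 0.21), with overlapping arrays.

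**Figure D5:**
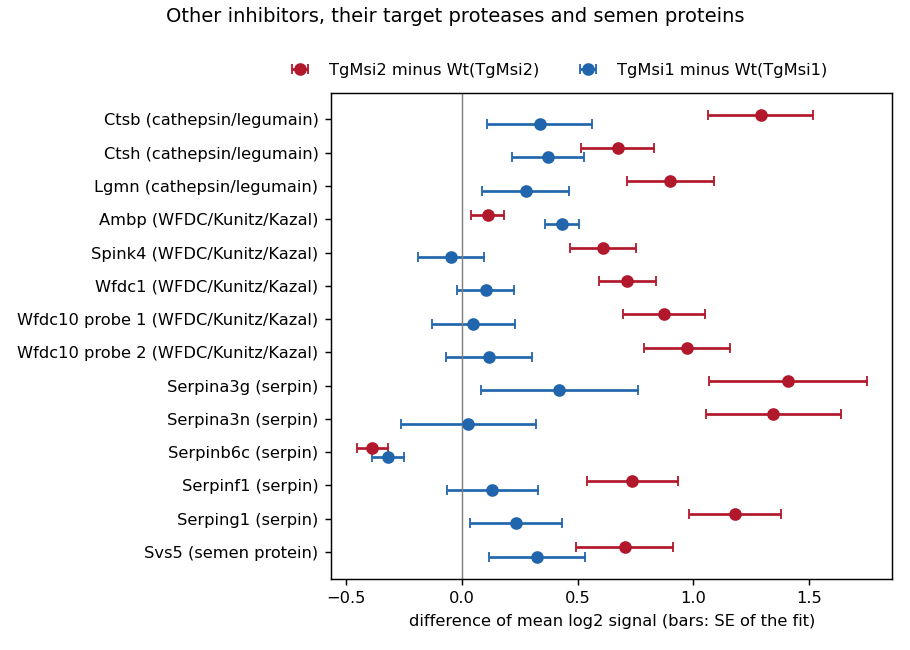
Difference of mean log2 signal between transgenic and wild-type testes for the other named inhibitors, proteases and semen proteins, with bars for the SE of the limma fit, TgMsi2 above TgMsi1 for each probe. Ctsb, Serping1, Serpina3n and Serpina3g lie above 1 in TgMsi2, Serpinb6c lies below 0 in both comparisons, and no gene passed limma's test in TgMsi1.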

How the data were processed

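The authors deposited normalized log2 values of 25697 probes on 16 Illumina bead arrays. The submitters' processing notes name GenomeStudio, with no version. How the values were normalized is not named there. Once sorted, the arrays' values differed from each other by 0.006 or less, with values from 7.37 to 14.51 and a median of 7.83, and 0 pairs of arrays were identical. Arrays of 1 group correlated with r from 0.988 to 0.996. No value lay near 0, so fold changes of dim probes may be understated. Per the file headers, the deposited comparison tables give a p-value per probe, the transgenic to wild-type ratio and a score, the fold with a sign. The authors' test and selection are not stated there. The log2 of their ratios differed from the differences of group means by at most 5.9e-06.

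A table of unnormalized signals has 128 columns without a sample's name, which were left unused. Only its symbol and probe columns (2) served, to count the genes the array holds. Of 932 named probes, 849 matched RefSeq (GRCm38.p6) by Entrez number. Sequences of start windows are RefSeq's.

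Groups came from the sample titles. A limma 3.58.1 fit in R 4.3.3 (lmFit and eBayes on all 16 arrays, with a mean for each group) was adjusted by Benjamini-Hochberg over all 25697 probes, with a threshold of 0.05 and no filter on dim probes. The fit was tested on simulated data. Alternatives were a variance trend with robust eBayes, only the 8 arrays of a comparison, a replicate block, array weights, probes with a mean log2 above 8, cyclic loess, subtraction of each array's lowest value, leaving out each array, and leaving out TgMsi2 replicates 1 and 3. The genes and gene lists were chosen with earlier results of these data known. Named were all probes of the 5 genes, the named members of the lists and the 3 most similar genes of each.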

Additional observations from a re-analysis of the deposited data

Results flagged for a closer look

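Cst3 had 1 wild-type array apart from the other 3 in each line, by a gap that exceeded Dixon's critical value for 4 samples. Wt(TgMsi2) replicate 2 was the highest of its group at a log2 signal of 12.84, with the next array at 12.44. Wt(TgMsi1) replicate 2 was the lowest of its group at 11.70, with the next at 12.14. In all, 28 sets of 4 arrays (7 probes in 4 groups) were examined and these 2 were flagged. Chance alone flags about 1 set in 20, so about this many are likely among 28 sets. The sets also share arrays, and nothing is read from the count. Without Wt(TgMsi2) replicate 2 the TgMsi2 difference of Cst3 was 0.75, against 0.64 with it, and without Wt(TgMsi1) replicate 2 its TgMsi1 difference was 0.20, against 0.31 with it.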

How the results depend on the processing

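In the TgMsi1 comparison 0 of the 7 probes passed under each of the 16 settings without 1 array and the 8 other alternatives. With the replicate number as a block, 0 of the 7 passed. The numbers are not known to pair arrays: deviations of same-numbered arrays correlated at 0.34, 0.12, -0.29 and -0.02 in the TgMsi2 line and 0.02, 0.29, 0.44 and 0.17 in the TgMsi1 line. The median TgMsi2 difference of the 7 probes was 0.73 to 0.95 with 1 array left out and 0.64 to 0.91 otherwise. The median excess of the TgMsi2 over the TgMsi1 difference was 0.60 to 0.82 with 1 array left out, and 0.42 without TgMsi2 replicates 1 and 3, against 0.69 with all arrays. The median difference between the wild-type groups was -0.03 to 0.12 with 1 array left out, against 0.04. The arrays give no signal over background that could be read, so the limits set by dim signal are unknown. With 4 arrays a group, the 95% intervals of the TgMsi1 differences span 0.57 to 1.10 log2 units.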
